A study of Rattus norvegicus with 16 samples.

Results

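The tumor necrosis factor (TNF) family and its TRAF adaptors were followed as a set of 41 genes among the 26689 genes quantified in rat bone marrow mesenchymal stromal cells (MSCs). A gene belonged to the set if its name was Tnf, Lta or Ltb, began with Tnfsf or Tnfrsf, or began with Traf followed by a digit. This gave 14 ligands, 17 receptors, 7 TRAF adaptors and 3 TRAF-interacting proteins. MSCs came from the femurs and tibias of 4 adult female wild-type Sprague-Dawley rats, numbered 2, 3, 4 and 8, and were sorted as CD29+/CD45- cells. The cells of each rat received 4 media for 24 h, giving 16 libraries with 4 per condition. M1CM was the medium of inflammatory (M1) macrophages grown from the same source bones. Pol1 was the medium used to polarize those macrophages, with LPS (100 ng/ml per the labels) and interferon gamma (20 ng/ml per the labels) but no macrophage product. M0CM was the medium of non-polarized macrophages, and D10 was the DMEM-based growth medium with fetal bovine serum that served as baseline. M1 macrophages were kept in the polarization medium, so M1CM may still contain its components. By the Methods these include macrophage colony-stimulating factor, whereas non-polarized macrophages received fresh medium for which this factor is not named. M1CM vs M0CM may therefore also differ by these added components. The labels give Pol1 a D10 base, whereas the Methods describe the macrophage media as RPMI-based and give another interferon gamma dose. The base medium therefore cannot be told apart from the treatment in comparisons with D10. With a D10 base for Pol1, the same holds for M1CM vs Pol1.

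TNF family ligands are mostly membrane proteins that act on a neighboring cell or are shed. Many of their receptors carry a death domain, which can engage caspases, or motifs that recruit TRAF adaptors, which pass the signal to NF-kB and to MAP kinases. MSCs are known as cells that respond to TNF and interferon gamma by producing chemokines and immunomodulators. The roles given below for single genes are those described mainly in human and mouse.

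Gene counts summed to between 23291125 and 31992709 per library, and levels are given in CPM, counts scaled to a library of 1000000 after TMM scaling of library size. Of the 41 genes, 27 reached 10 counts in at least 4 libraries and were tested (8 ligands, 10 receptors, 9 TRAF or TRAF-interacting genes). Tnf, Ltb, Tnfsf10 and Tnfrsf14 reached that count only in M1CM or Pol1 libraries, so the counts below describe the genes that passed and do not stand for all 41. Calls were made by edgeR's quasi-likelihood test at 0.05 after Benjamini-Hochberg adjustment over all 13556 genes. The 8 MSC markers (among them Thy1, Itgb1 and Eng) summed to 5880-7110 CPM in M1CM, 4360-5690 in Pol1, 4590-7120 in M0CM and 4750-7820 in D10. The 14 macrophage and monocyte markers summed to 17.3-40.9 CPM in M1CM, 7.5-11.8 in Pol1, 19.1-23.8 in M0CM and 5.62-9.53 in D10. Of 9 tested, 4 were called higher in M1CM than in D10 (Cd68, Cd14, Cybb and Lyz2) and 2 lower (Mrc1 and Lcp1). In M0CM vs D10, 1 of the 9 was called higher (Lyz2, log2 fold change 5.36, SE 0.62, adjusted p = 0.00496, edgeR) and 0 lower. That call was lost without rat 4 or rat 8. At an unadjusted p below 0.05, 7 of the 9 were higher in M0CM and 0 lower. Cd14 averaged 16.9 CPM in M1CM and 4.69 in D10, and Cd68 averaged 4.19 CPM in M1CM and 0.252 in D10. Mrc1 had no counts in M1CM, Tyrobp none in M1CM, Pol1 or D10, and Cd163 none in any condition. The 7 lymphocyte markers summed to at most 0.0952 CPM in any library. The part of these markers in the results below was not tested. Fewer cells of a type and less RNA per cell cannot be told apart in bulk RNA.

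M1CM conditioning changed most of the tested set. Relative to D10, 14 genes rose and 3 fell among 27, whereas 23.3% of all tested genes rose and 21.1% fell (44.4% in all). The median log2 fold change was 0.48 for the set and -0.01 for all genes. Tnfsf10, Tnf and Tnfrsf14 had no counts in any D10 library, and Ltb, Traf1 and Tnfrsf9 had the next largest increases. Tnfsf18, Tnfrsf21 and Traf5 were the genes that fell. The M1CM and D10 values did not overlap for 15 of the 27 genes, against 35.9% of all genes. Of the 17 calls, 13 held in every alternative setting in which the gene was tested, apart from a minimum fold change. The calls of Traf4 and Traf6 were lost when rat 3, 4 or 8 was left out, that of Tnfrsf21 without rat 3 or 4, and that of Traf3 without rat 2 (edgeR adjusted p = 0.0501). Traf4 and Traf6 also lost their calls with only the 8 libraries compared (edgeR adjusted p = 0.0795 and 0.104). Without the count filter the call of Traf4 was lost too (edgeR adjusted p = 0.0543).

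Pol1 changed genes of all 3 roles in the set. Relative to D10, 11 genes rose and 4 fell, against 10.6% and 8.09% of all genes (18.6% in all), and the median log2 fold change was 0.35 for the set and -0.01 for all genes. Values in Pol1 and D10 did not overlap for 13 of the 27 genes, against 23% of all genes. With rat 3 left out 4 genes rose and 2 fell among 25 tested, with rat 4 left out 6 rose and 1 fell among 26, and with rat 8 left out 6 rose and 1 fell among 26. Tnf failed the count filter in each of these fits. It was also tested with each rat left out at 10 counts in at least 3 libraries, a setting chosen after seeing the data. Tnfrsf14 failed the filter without rat 3. It was tested at that setting only without rat 3 and only in the M1CM comparisons where it was called, not in Pol1 vs D10. Tnfsf10, Tnfsf18, Tnfrsf1a and Tnfrsf1b were the 4 of 15 calls that held in every alternative setting in which they were tested, apart from a minimum fold change. M0CM gave no call in the set (0 of 27 by edgeR and 0 by DESeq2), against 0.14% of all genes, and 3 genes had an unadjusted p below 0.05 (Tnfsf18, Tnfrsf1a and Tnfrsf9).

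The direct comparison of M1CM with Pol1 set the macrophage medium against the polarizing medium, whose base is given differently by labels and Methods. In it 10 genes rose and 2 fell, against 13.8% and 11.3% of all genes (25.1% in all). Of these 12 calls, 5 held in every alternative setting in which the gene was tested, apart from a minimum fold change. They were those of Tnf, Tnfrsf12a, Tnfrsf14, Traf1 and Traf5. Without rat 4 the number that rose was 4, and without rat 3 or rat 8 it was 6. The number that fell was 1 without rat 3 and 1 without rat 4. Tnf was not tested in these fits, nor Tnfrsf14 without rat 3. Against M0CM, 13 genes rose in M1CM and 3 fell (21.5% and 18.8% of all genes, 40.3% in all). Of these 16 calls, 11 held in every alternative setting in which the gene was tested, apart from a minimum fold change. Those of Traf3, Traf6, Tnfrsf1a, Tnfrsf21 and Tnfrsf9 did not. The comparisons share M1CM, Pol1 or D10 libraries, so they are not independent of each other. Tnfsf10 and Tnfrsf14, without counts in M0CM, were at least 807-fold and at least 252-fold higher in M1CM.

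**Figure D1:**
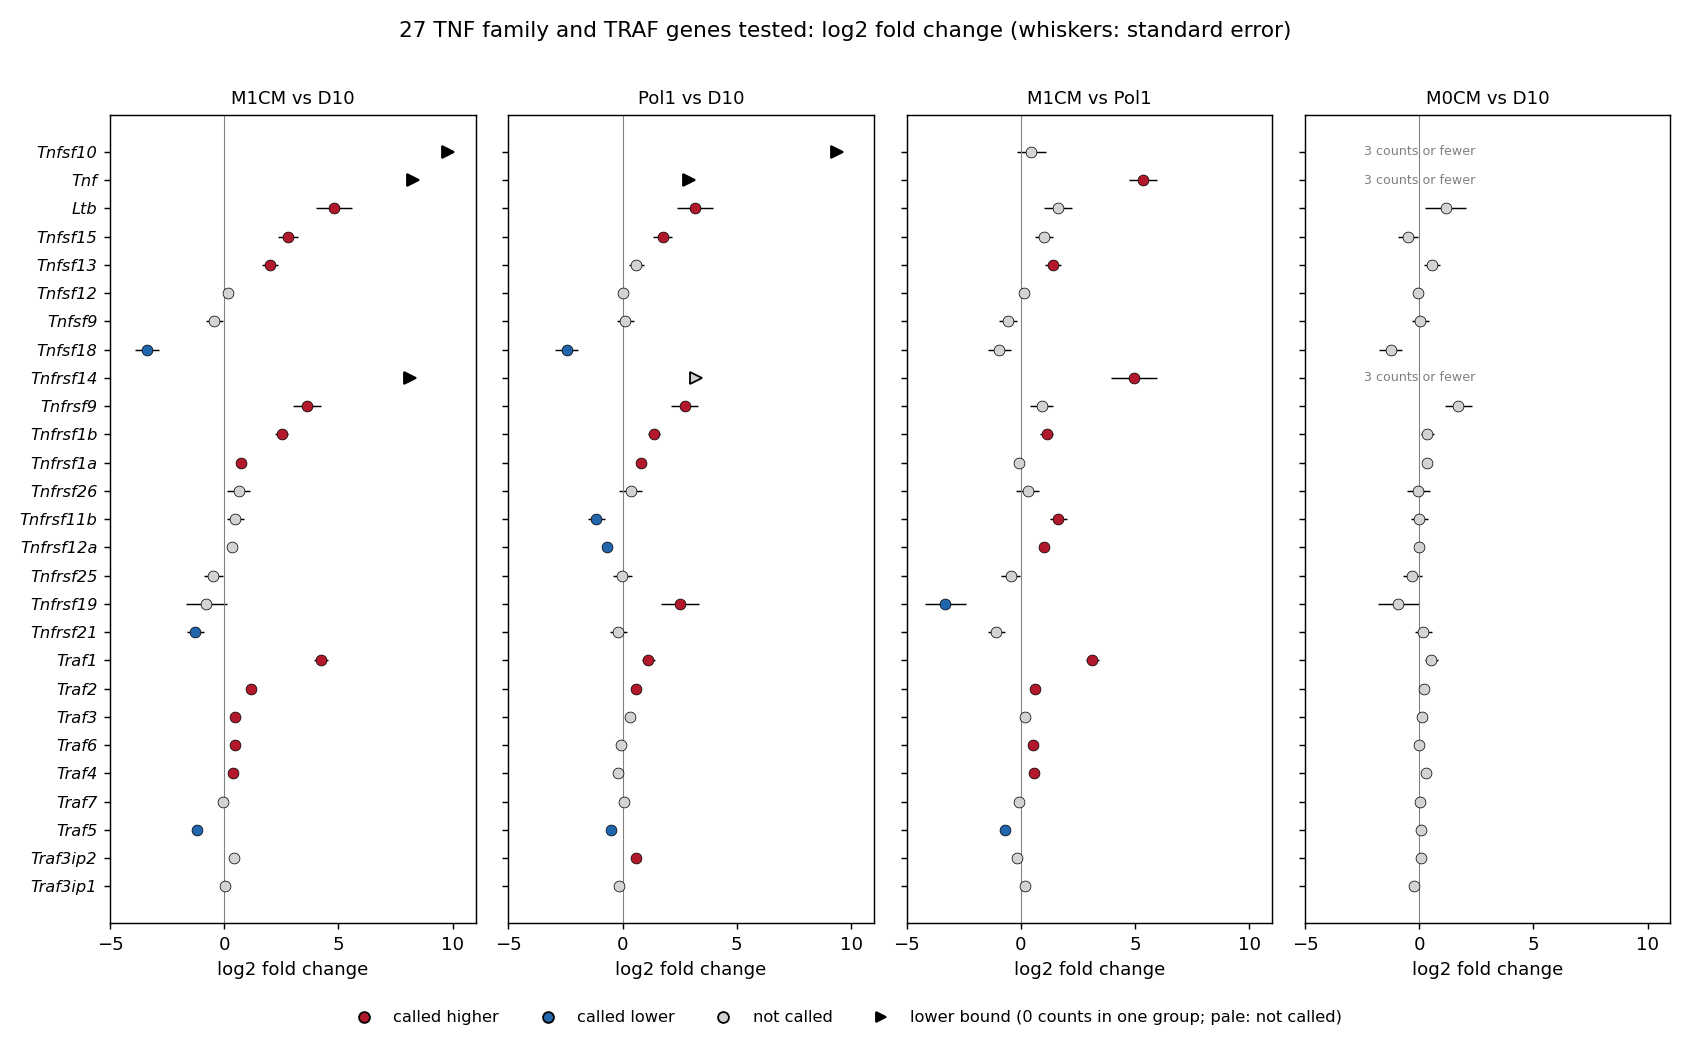
Log2 fold change (x axis) of the 27 tested genes (rows: ligands, receptors, TRAF adaptors and TRAF-interacting genes) in 4 comparisons, with whiskers for the standard error (n = 4 libraries per condition). Red and blue points were called higher and lower, grey points were not called, and triangles mark lower bounds for genes without a count in D10 (pale where not called). In M1CM vs D10, 14 genes are called higher and 3 lower, and none is called in M0CM vs D10.

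The promoters of 6 genes on which the results turn are shown, chosen after their values and motif matches were seen: Tnfsf10 and Tnf, without counts in D10 and present in M1CM; Ltb and Tnfrsf1b, which rose in both M1CM and Pol1; Traf1, the adaptor with the largest increase; and Tnfsf18, the ligand that fell. Each is the 250 bases before the annotated gene start, on the gene's strand (RefSeq, GRCr8). Names matched an entry for 33 of the 41 genes; Tnfsf12, Traf6, Tnfrsf11b, Tnfsf9, Tnfsf4, Tnfrsf14, Tnfrsf18 and Tnfrsf11a had none. Capitals mark matches, on either strand, to 6 motifs: the IRF site GAAANNGAA, the interferon-stimulated response core, which is that site with 1 more A at its 3′ end, the STAT site TTCNNNGAA (GAS), the AP-1 site TGANTCA, the TATA box TATAAA and the kappaB motif. The IRF site without that base was added after the Tnfsf10 promoter had been read.
Tnfsf10 (chr2:112136689-112136938, + strand): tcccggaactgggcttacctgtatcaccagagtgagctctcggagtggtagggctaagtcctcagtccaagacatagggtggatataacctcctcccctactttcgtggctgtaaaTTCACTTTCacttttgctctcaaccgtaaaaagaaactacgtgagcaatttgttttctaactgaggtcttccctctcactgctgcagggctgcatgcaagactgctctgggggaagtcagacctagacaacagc
Tnf (chr20:3626435-3626684, + strand): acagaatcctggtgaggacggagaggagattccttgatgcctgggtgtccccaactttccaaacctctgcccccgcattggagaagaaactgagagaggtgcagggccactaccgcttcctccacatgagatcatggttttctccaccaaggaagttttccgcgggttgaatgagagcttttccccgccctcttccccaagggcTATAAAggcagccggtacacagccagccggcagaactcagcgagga
Ltb (chr20:3634055-3634304, - strand): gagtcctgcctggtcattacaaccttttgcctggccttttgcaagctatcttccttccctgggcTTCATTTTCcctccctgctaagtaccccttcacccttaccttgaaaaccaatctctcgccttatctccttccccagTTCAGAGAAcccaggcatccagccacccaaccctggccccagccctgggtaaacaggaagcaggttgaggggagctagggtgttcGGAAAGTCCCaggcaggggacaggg
Tnfrsf1b (chr5:162387412-162387661, - strand): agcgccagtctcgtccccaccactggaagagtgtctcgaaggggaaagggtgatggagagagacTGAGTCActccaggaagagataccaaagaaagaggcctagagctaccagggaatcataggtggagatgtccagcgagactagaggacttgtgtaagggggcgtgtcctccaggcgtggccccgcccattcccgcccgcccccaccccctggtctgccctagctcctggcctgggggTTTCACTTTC
Traf1 (chr3:38635771-38636020, - strand): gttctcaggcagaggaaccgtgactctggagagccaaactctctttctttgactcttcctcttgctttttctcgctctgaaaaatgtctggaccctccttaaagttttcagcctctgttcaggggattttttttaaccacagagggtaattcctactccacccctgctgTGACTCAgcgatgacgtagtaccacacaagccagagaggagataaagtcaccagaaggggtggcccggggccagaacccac
Tnfsf18 (chr13:76366603-76366852, + strand): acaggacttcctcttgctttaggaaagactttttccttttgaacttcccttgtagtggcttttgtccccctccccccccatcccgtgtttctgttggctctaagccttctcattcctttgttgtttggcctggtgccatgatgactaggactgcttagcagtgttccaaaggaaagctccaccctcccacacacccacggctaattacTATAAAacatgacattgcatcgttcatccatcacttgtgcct

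The Tnfsf10 promoter held the IRF site 134 to 126 bases before the start. The Ltb promoter held the IRF site (186 to 178), a GAS site (110 to 102) and a kappaB match (25 to 16). In Tnfrsf1b the interferon-stimulated response core ended at the base before the start (10 to 1), and an AP-1 site lay 186 to 180 bases before it. The Traf1 promoter held an AP-1 site (81 to 75), and Tnf (46 to 41) and Tnfsf18 (42 to 37) each held a TATA box. Among 33469 promoters of this length, 3.41% held the response core, 8.12% the IRF site, 7.67% the GAS site, 6.33% the kappaB motif, 6.34% the AP-1 site and 12.9% the TATA box. In the set, 3, 7, 3, 7, 4 and 6 of 33 promoters held them, in that order, with changed and unchanged genes pooled. Of the 12 promoters of genes called higher in M1CM than in D10, 1, 4, 1, 2, 2 and 2 held them. These are letter matches in a short window and show no binding.

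Among the ligands, Tnfsf10 (TRAIL, which can trigger apoptosis through death receptors) was present in M1CM and Pol1 and had no count in M0CM or D10. In the order of rats 2, 3, 4 and 8, which is kept for all values below, it had 19.8, 58.5, 5.22 and 14.2 CPM in M1CM and 18.8, 28.9, 9.19 and 14.1 CPM in Pol1. Relative to D10 this was an increase of at least 885-fold in M1CM and of at least 669-fold in Pol1, taking a floor of 3 counts over the D10 libraries (adjusted p = 0.000131 and 0.000547, edgeR). The rats had the same order in both media, with rat 3 highest and rat 4 lowest. M1CM and Pol1 overlapped, and their difference was not called (log2 fold change 0.46, SE 0.65, adjusted p = 0.658, edgeR); it was -0.1 without rat 3.

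Tnf itself, a main inflammatory cytokine, had a different distribution. Its levels were 4.59, 11, 9.94 and 7.18 CPM in M1CM, and 0, 0.287, 0.239 and 0.249 CPM in Pol1. M0CM had 1 count (rat 2) and D10 none. Every M1CM value lay above every Pol1 value. Tnf was at least 307-fold higher in M1CM than in D10 (adjusted p = 2.98e-06, edgeR). The difference between M1CM and Pol1 was 5.34 on the log2 scale (SE 0.62, adjusted p = 9.68e-05, edgeR), and 22 counts in 3 Pol1 libraries were at least 7.6-fold above D10 (adjusted p = 0.009). With 10 counts in at least 3 libraries, the Pol1 call was lost without rat 3, 4 or 8 (edgeR adjusted p = 0.0659, 0.0742 and 0.0738), whereas those of M1CM vs D10 and M1CM vs Pol1 held with each rat left out. Relative to M0CM, Tnf was 841-fold higher in M1CM (95% counting interval 151 to 33300, on 1 M0CM count). The macrophage and monocyte markers summed to 17.3-40.9 CPM in M1CM, 19.1-23.8 in M0CM and 5.62-9.53 in D10. Of these, Cd14 had 8.34, 9.17, 32.6 and 17.5 CPM in M1CM and averaged 4.69 CPM in D10. The leukocyte marker Ptprc averaged 0.115 CPM in M1CM and 0.351 in M0CM, and had 0 counts in Pol1 and D10. Cd68 had 0.888, 6.77, 6.54 and 2.57 CPM in M1CM, which ordered the rats as Tnf did. It averaged 0.239 CPM in Pol1, 0.844 in M0CM and 0.252 in D10. Of the 9 markers tested against D10, 4 were called up in M1CM, Cd68 among them, and 2 down. Cd14, Cybb and Lyz2, also called up, ordered the rats differently. The part of these markers in the level of Tnf was not tested.

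Ltb (lymphotoxin beta), which lies with Tnf on chromosome 20, was low but rose in both media. It had 0.926, 1.5, 0.983 and 1.93 CPM in M1CM, 0.122, 0.646, 0.376 and 0.569 in Pol1, 0, 0.192, 0.176 and 0.0408 in M0CM and 0.0418, 0.0376, 0.0939 and 0 in D10. M1CM values lay above those of every other condition. It rose by 4.79 on the log2 scale for M1CM vs D10 (SE 0.79, adjusted p = 0.000176) and 3.17 for Pol1 vs D10 (SE 0.80, adjusted p = 0.0123), both by edgeR. The Pol1 call was lost without rat 3 or rat 8 (adjusted p = 0.0987 and 0.0887). M1CM vs Pol1 was not called (edgeR adjusted p = 0.0673), but was called with a term for the rat (0.00882) and by DESeq2 (0.0274). Lta, the third gene of this cluster, had 10 counts in all libraries together, 7 of them in D10.

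Tnfsf15 (TL1A, a T cell co-stimulator) had 16.2, 13, 5.18 and 3.75 CPM in M1CM, 4.3, 5.53, 5.09 and 3.84 in Pol1, 1.32, 1.31, 0.705 and 0.653 in M0CM and 1.55, 1.8, 0.939 and 1.27 in D10. It rose in M1CM and in Pol1 relative to D10 (log2 fold change 2.78, SE 0.43, adjusted p = 9.77e-05, and 1.76, SE 0.42, adjusted p = 0.00831, edgeR). Rats 2 and 3 were well above Pol1 in M1CM and rats 4 and 8 close to it. M1CM vs Pol1 was not called (edgeR adjusted p = 0.0736), but was called with the rat term (log2 fold change 0.82, adjusted p = 0.0284) and by DESeq2 (1.03, adjusted p = 0.0424). The Pol1 call was lost without rat 4 (adjusted p = 0.0617).

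Tnfsf13 (APRIL, a B cell survival ligand) was called higher in M1CM than in each other condition. It had 2.47, 5.65, 4.27 and 3.93 CPM in M1CM, 1.01, 1.33, 2.53 and 1.31 in Pol1, 1.36, 1.85, 1.52 and 1.31 in M0CM and 0.585, 1.58, 1.16 and 0.73 in D10. M1CM overlapped Pol1 but not M0CM or D10. The difference on the log2 scale was 2.00 for M1CM vs D10 (SE 0.36, adjusted p = 0.000364) and 1.39 for M1CM vs Pol1 (SE 0.35, adjusted p = 0.00933), by edgeR. For M1CM vs M0CM it was 1.43 (SE 0.35, adjusted p = 0.00451, edgeR). The M1CM vs Pol1 call was lost without rat 3 or rat 8 (adjusted p = 0.0585 and 0.0672). Pol1 alone differed from D10 by 0.61 on the log2 scale, which was not called (adjusted p = 0.268).

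Tnfsf18 (GITRL, a co-stimulatory ligand) was the ligand that fell. Levels were 4.13, 8.95, 2.38 and 3.32 CPM in M1CM, 5.79, 4.88, 7.65 and 17.7 in Pol1, 16.8, 16.8, 17.4 and 31 in M0CM and 23, 43.7, 38.6 and 89.9 in D10. Neither M1CM nor Pol1 overlapped D10. On the log2 scale the change was -3.38 in M1CM (SE 0.53, adjusted p = 0.000125) and -2.44 in Pol1 (SE 0.51, adjusted p = 0.00364) relative to D10, and -2.13 in M1CM relative to M0CM (SE 0.51, adjusted p = 0.004), by edgeR. M0CM was lower than D10 in each rat, but the difference was not called (log2 fold change -1.25, SE 0.49, adjusted p = 0.897). Rat 8 had the highest value in Pol1, M0CM and D10.

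Tnfsf12 (TWEAK) and Tnfsf9 (the 4-1BB ligand) were not called in any of the 5 comparisons. Tnfsf12 ranged from 13.5 to 22.8 CPM and Tnfsf9 from 0.643 to 2.11 CPM over the 16 libraries. The other 6 ligands stayed below the count minimum. Tnfsf11 (RANKL) and Tnfsf14 (LIGHT) had 0 counts throughout. Tnfsf13b (BAFF) had 59 counts in Pol1, 32 of them in rat 3, against 13 in M1CM and 3 in D10; the Pol1 ratio to D10 was 20.4 (95% counting interval 6.64 to 102). Tnfsf4 (OX40L) had 15 counts, all in M1CM. Tnfsf8 had 7 counts in all.

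**Figure D2:**
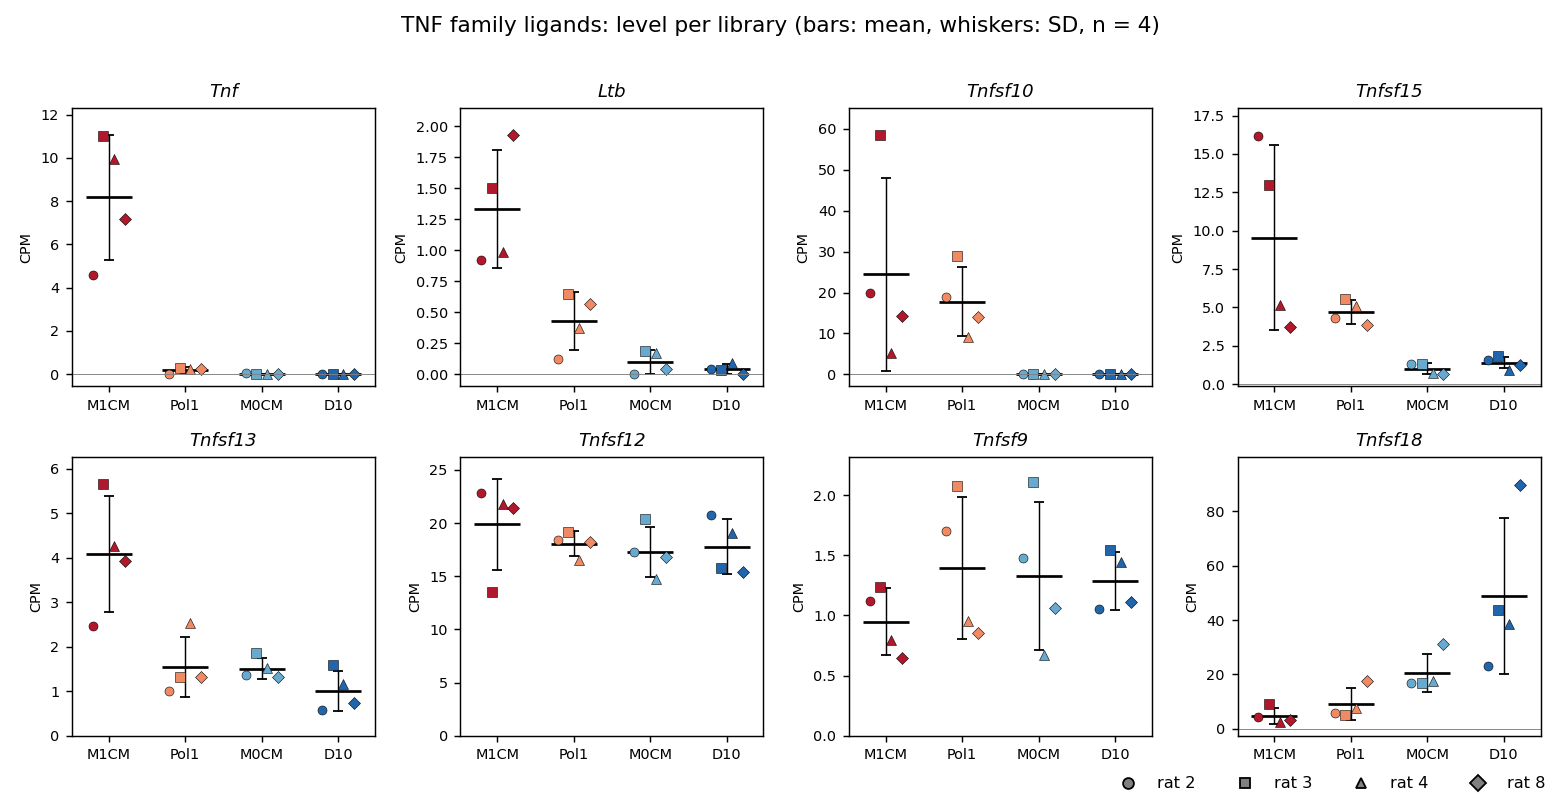
Level (CPM, linear y axis) of the 8 tested ligands in M1CM, Pol1, M0CM and D10, with 1 point per library, the shape giving the rat, horizontal bars for the mean and whiskers for the SD (n = 4). Tnf is at 4.59-11 CPM in M1CM and at most 0.287 CPM elsewhere, Tnfsf10 is present in M1CM and Pol1, and Tnfsf18 is lower in both than in D10.

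The receptors for TNF were expressed in every library. Tnfrsf1a (TNFR1, the death domain receptor for TNF) had the highest mean level per kilobase of the 41 genes over the 16 libraries (86.4 CPM per kb). It averaged 101 ± 7.12 CPM per kb in M1CM, 108 ± 14.8 in Pol1, 76.3 ± 9.9 in M0CM and 61 ± 12 in D10 (SD, n = 4 each). In CPM it had 235, 210, 204 and 203 in M1CM, 208, 266, 239 and 197 in Pol1, 142, 191, 160 and 153 in M0CM and 128, 153, 141 and 94.3 in D10. Both M1CM and Pol1 lay above D10 without overlap. Relative to D10 it rose by 0.72 on the log2 scale in M1CM (SE 0.14, adjusted p = 0.000895) and 0.82 in Pol1 (SE 0.14, adjusted p = 0.00104), by edgeR. M1CM and Pol1 overlapped for this gene and were not called different (log2 fold change -0.09, SE 0.14, adjusted p = 0.679).

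Tnfrsf1b (TNFR2, which recruits TRAF2 and has no death domain) had larger fold changes than Tnfrsf1a. It had 80.3, 129, 197 and 121 CPM in M1CM, 54.4, 79.8, 59.6 and 46.5 in Pol1, 32.3, 40.7, 20.4 and 25.1 in M0CM and 22.5, 32.2, 17.7 and 20.3 in D10. M1CM values were all above those of Pol1, which were all above those of D10. The log2 fold change relative to D10 was 2.51 in M1CM (SE 0.29, adjusted p = 6.47e-06) and 1.38 in Pol1 (SE 0.28, adjusted p = 0.00306), by edgeR. M1CM exceeded Pol1 by 1.13 on the log2 scale (SE 0.28, adjusted p = 0.00811), a call lost without rat 4 or rat 8 (adjusted p = 0.0599 and 0.0642). Per kilobase, the ratio of Tnfrsf1b to Tnfrsf1a was 0.136, 0.245, 0.384 and 0.238 in M1CM and 0.105, 0.12, 0.0994 and 0.0944 in Pol1. In D10 it was 0.0703, 0.0839, 0.05 and 0.0858, so Tnfrsf1a remained the more abundant TNF receptor transcript in all 16 libraries.

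Tnfrsf14 (HVEM, a receptor for LIGHT and lymphotoxin alpha) had no count in M0CM or D10. It had 4.75, 18.2, 3.52 and 4.11 CPM in M1CM and 0.081, 0.682, 0.205 and 0 CPM in Pol1, and rat 3 was highest in both. It was at least 277-fold higher in M1CM than in D10 (adjusted p = 0.000599, edgeR), and 4.94 higher than in Pol1 on the log2 scale (SE 1, adjusted p = 0.00733). In Pol1, 27 counts were at least 9.33-fold above D10. This was not called (adjusted p = 0.0768, edgeR) but was called with a term for the rat (0.0115) and by DESeq2 (0.0161). Tnfrsf9 (4-1BB, a co-stimulatory receptor) had 2.43, 1.16, 2.08 and 2.21 CPM in M1CM, 0.932, 1.8, 1.09 and 0.355 in Pol1, 0.678, 0.731, 0.211 and 0.449 in M0CM and 0.376, 0.0751, 0.0939 and 0.0952 in D10. It rose relative to D10 in M1CM (log2 fold change 3.63, SE 0.60, adjusted p = 0.000184) and in Pol1 (2.72, SE 0.59, adjusted p = 0.00499), by edgeR. The Pol1 call was lost without rat 3 (adjusted p = 0.0557).

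A pair of abundant receptors fell in Pol1 and were not called in M1CM relative to D10. Tnfrsf12a (Fn14, the TWEAK receptor) had 78.6, 57.3, 98.9 and 90.8 CPM in M1CM, 49.1, 34.4, 36.7 and 41.4 in Pol1 and 53.1, 56.4, 71.5 and 79.3 in D10. Tnfrsf11b (osteoprotegerin, a decoy receptor for RANKL) had 59.4, 137, 108 and 172 CPM in M1CM, 21.7, 51, 38.1 and 42.2 in Pol1 and 54.9, 131, 91.6 and 64.5 in D10. Pol1 lay below M1CM and below D10 without overlap for both genes. Relative to D10, the log2 fold change in Pol1 was -0.69 for Tnfrsf12a (SE 0.18, adjusted p = 0.0153) and -1.16 for Tnfrsf11b (SE 0.37, adjusted p = 0.0413), by edgeR. M1CM exceeded Pol1 by 1.01 for Tnfrsf12a (SE 0.18, adjusted p = 0.00104) and by 1.64 for Tnfrsf11b (SE 0.38, adjusted p = 0.00547). M1CM and D10 were not called different for either (adjusted p = 0.163 and 0.318). The Pol1 vs D10 calls were lost for Tnfrsf12a without rat 4 or 8, and for Tnfrsf11b without rat 3, 4 or 8 or with library totals as the scaling (adjusted p = 0.0584). The M1CM vs Pol1 call of Tnfrsf11b was lost without rat 4 (adjusted p = 0.0536).

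Tnfrsf19 (TROY) had its highest mean in Pol1. It had 0.695, 0.0428, 0.0756 and 0.107 CPM in M1CM, 4.38, 2.91, 0.922 and 1.14 in Pol1 and 0.753, 0.376, 0.125 and 0.381 in D10, and every Pol1 value lay above those of M1CM and D10. It rose in Pol1 relative to D10 (log2 fold change 2.52, SE 0.84, adjusted p = 0.0497, edgeR), a call lost without rat 3, 4 or 8, without the count filter and with relative log expression scaling (adjusted p = 0.0501). The log2 fold change of M1CM vs Pol1 was -3.31 (SE 0.89, adjusted p = 0.0139), a call lost without rat 3 or rat 4 (adjusted p = 0.093 and 0.0585). Tnfrsf21 (death receptor 6) had 5.56, 2.14, 3.7 and 4.5 CPM in M1CM, 12, 7.15, 10.6 and 3.59 in Pol1 and 14, 7.17, 9.21 and 7.68 in D10. It fell in M1CM relative to D10 (log2 fold change -1.26, SE 0.38, adjusted p = 0.0153, edgeR). The M1CM and D10 values of Tnfrsf21 did not overlap, and M1CM vs Pol1 was not called (edgeR adjusted p = 0.0543). It was called with the rat term (adjusted p = 0.0148), by DESeq2 (0.0245), with library totals as the scaling (0.0406) and without rat 8 (0.0243).

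Tnfrsf26 followed the rat in every medium. It had 6.37, 23.4, 17.1 and 9.96 CPM in M1CM, 4.94, 19.5, 13 and 8.99 in Pol1, 3.47, 13.3, 10.8 and 7.96 in M0CM and 3.76, 11.7, 11 and 10 in D10. The order of the rats was the same in all 4 media. M1CM vs D10 was not called (log2 fold change 0.64, SE 0.50, adjusted p = 0.328, edgeR) but was called with the rat term (0.59, SE 0.14, adjusted p = 0.00284). Tnfrsf25 (death receptor 3, the receptor for Tnfsf15) stayed between 0.204 and 0.877 CPM and was not called in any comparison. The other 7 receptors were below the count minimum. Tnfrsf4 (OX40) had 115 counts spread over the 16 libraries, Tnfrsf8 had 46 and Tnfrsf11a (RANK) had 47, of which 25 were in D10 and 2 in M1CM. Tnfrsf18 (GITR), Tnfrsf17, Tnfrsf13b and Tnfrsf13c had 11, 4, 2 and 2 counts.

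**Figure D3:**
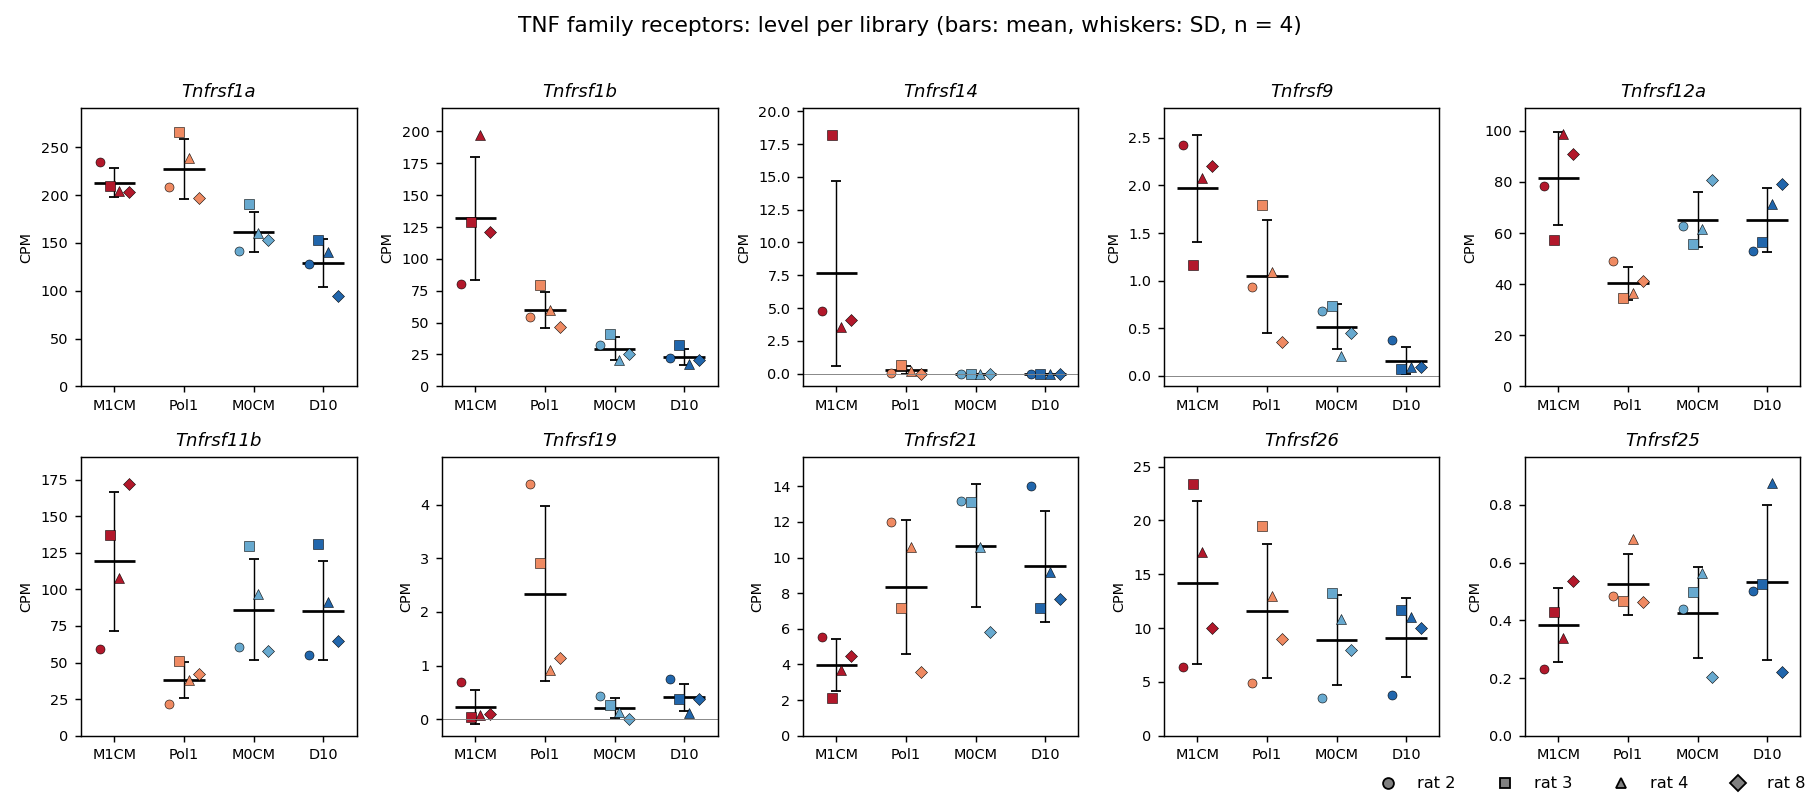
Level (CPM, linear y axis) of the 10 tested receptors in M1CM, Pol1, M0CM and D10, with 1 point per library, the shape giving the rat, horizontal bars for the mean and whiskers for the SD (n = 4). Tnfrsf1b reaches 80.3-197 CPM in M1CM against 17.7-32.2 CPM in D10, and Tnfrsf12a and Tnfrsf11b are lowest in Pol1.

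Ligands can be set beside their receptors. Tnf, Tnfrsf1a and Tnfrsf1b were all higher in M1CM than in D10. Tnfsf12 was not called while its receptor Tnfrsf12a fell in Pol1. Tnfsf15 rose while Tnfrsf25 was at or below 0.877 CPM, Tnfsf18 fell while Tnfrsf18 was almost without counts, and Tnfrsf9 rose while Tnfsf9 was not called. Osteoprotegerin was detected at 21.7 CPM or more in every library, whereas RANKL, a ligand that it binds, had 0 counts.

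Among the TRAF adaptors, Traf1 changed most. TRAF1 lacks the RING domain of other TRAF proteins and is itself a known NF-kB target. It had 24.4, 26.2, 54.7 and 34.4 CPM in M1CM, 3.53, 3.41, 5.81 and 3.3 in Pol1, 2.91, 3.04, 2.71 and 1.96 in M0CM and 1.84, 1.65, 2.44 and 1.43 in D10. M1CM values were all above those of the other media, and Pol1 values were all above those of M0CM and D10. The log2 fold change was 4.24 for M1CM vs D10 (SE 0.30, adjusted p = 4e-08), 1.12 for Pol1 vs D10 (SE 0.28, adjusted p = 0.011) and 3.12 for M1CM vs Pol1 (SE 0.28, adjusted p = 4.41e-06), by edgeR. The Pol1 call was lost without rat 3 or rat 8 (adjusted p = 0.054 and 0.0594).

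Traf2, the ubiquitin ligase recruited by both TNF receptors, had 36.5, 32.4, 29 and 23.3 CPM in M1CM, 21.8, 21.9, 20.1 and 16.3 in Pol1 and 14.7, 13.7, 14.9 and 10.7 in D10. The 3 ranges did not overlap. The log2 fold change was 1.17 for M1CM vs D10 (SE 0.15, adjusted p = 2.02e-05), 0.57 for Pol1 vs D10 (SE 0.15, adjusted p = 0.0157) and 0.60 for M1CM vs Pol1 (SE 0.15, adjusted p = 0.00925), by edgeR. The Pol1 call was lost without rat 3 or 4, and the M1CM vs Pol1 call without rat 4 (adjusted p = 0.0663).

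Traf5, which acts with TRAF2, moved in the other direction. It had 8.99, 8.74, 7.86 and 9.93 CPM in M1CM, 14.8, 12.9, 13.9 and 16.1 in Pol1, 19.6, 20.7, 23.9 and 21.5 in M0CM and 15.5, 20.9, 21.8 and 22.4 in D10. M1CM was below every other medium without overlap. The log2 fold change was -1.18 for M1CM vs D10 (SE 0.12, adjusted p = 2.64e-06), -0.49 for Pol1 vs D10 (SE 0.12, adjusted p = 0.0123) and -0.70 for M1CM vs Pol1 (SE 0.12, adjusted p = 0.000982), by edgeR. The Pol1 vs D10 call was lost without rat 3, 4 or 8.

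The remaining TRAF genes changed little. Traf3, a restraint on non-canonical NF-kB, had 141, 170, 138 and 139 CPM in M1CM and 93.4, 106, 109 and 110 in D10 (log2 fold change 0.49, SE 0.14, adjusted p = 0.0116, edgeR). Traf6, the adaptor of interleukin-1 and Toll-like receptors, had 16.1, 31.7, 21.3 and 20.4 CPM in M1CM, 13.4, 16.8, 14.9 and 16 in Pol1 and 15.4, 18.4, 14 and 16.5 in D10. It was called higher in M1CM than in D10 (0.47, SE 0.17, adjusted p = 0.0311) and than in Pol1 (0.55, SE 0.17, adjusted p = 0.0258). Both calls were lost without rat 3, 4 or 8 and with only the 8 libraries compared. Traf4 had 27.1, 21, 26.1 and 24 CPM in M1CM, 16.9, 17.3, 15.5 and 15.5 in Pol1 and 22, 16.6, 21.1 and 15 in D10. Its M1CM values overlapped D10 (log2 fold change 0.39, SE 0.14, adjusted p = 0.0378) but not Pol1 (0.59, SE 0.14, adjusted p = 0.00791, lost without rat 4).

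Traf3ip2 (Act1, the adaptor of interleukin-17 receptors) had 18.3, 24, 20.3 and 16.3 CPM in M1CM, 20.3, 24.5, 25.1 and 17.6 in Pol1 and 12, 16.9, 17.3 and 11.7 in D10. It was called in Pol1 vs D10 (log2 fold change 0.60, SE 0.18, adjusted p = 0.0301, edgeR). That call was lost when any rat was left out and with only the 8 libraries compared (edgeR adjusted p = 0.0501). In M1CM vs D10 it was not called (edgeR adjusted p = 0.0555), but was called with the rat term (0.45, SE 0.09, adjusted p = 0.000497) and by DESeq2 (0.45, adjusted p = 0.0446). Traf7, at 96.7-118 CPM, and Traf3ip1, at 7.77-13.2 CPM, were not called in any comparison, and Traf3ip3 had 16 counts.

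**Figure D4:**
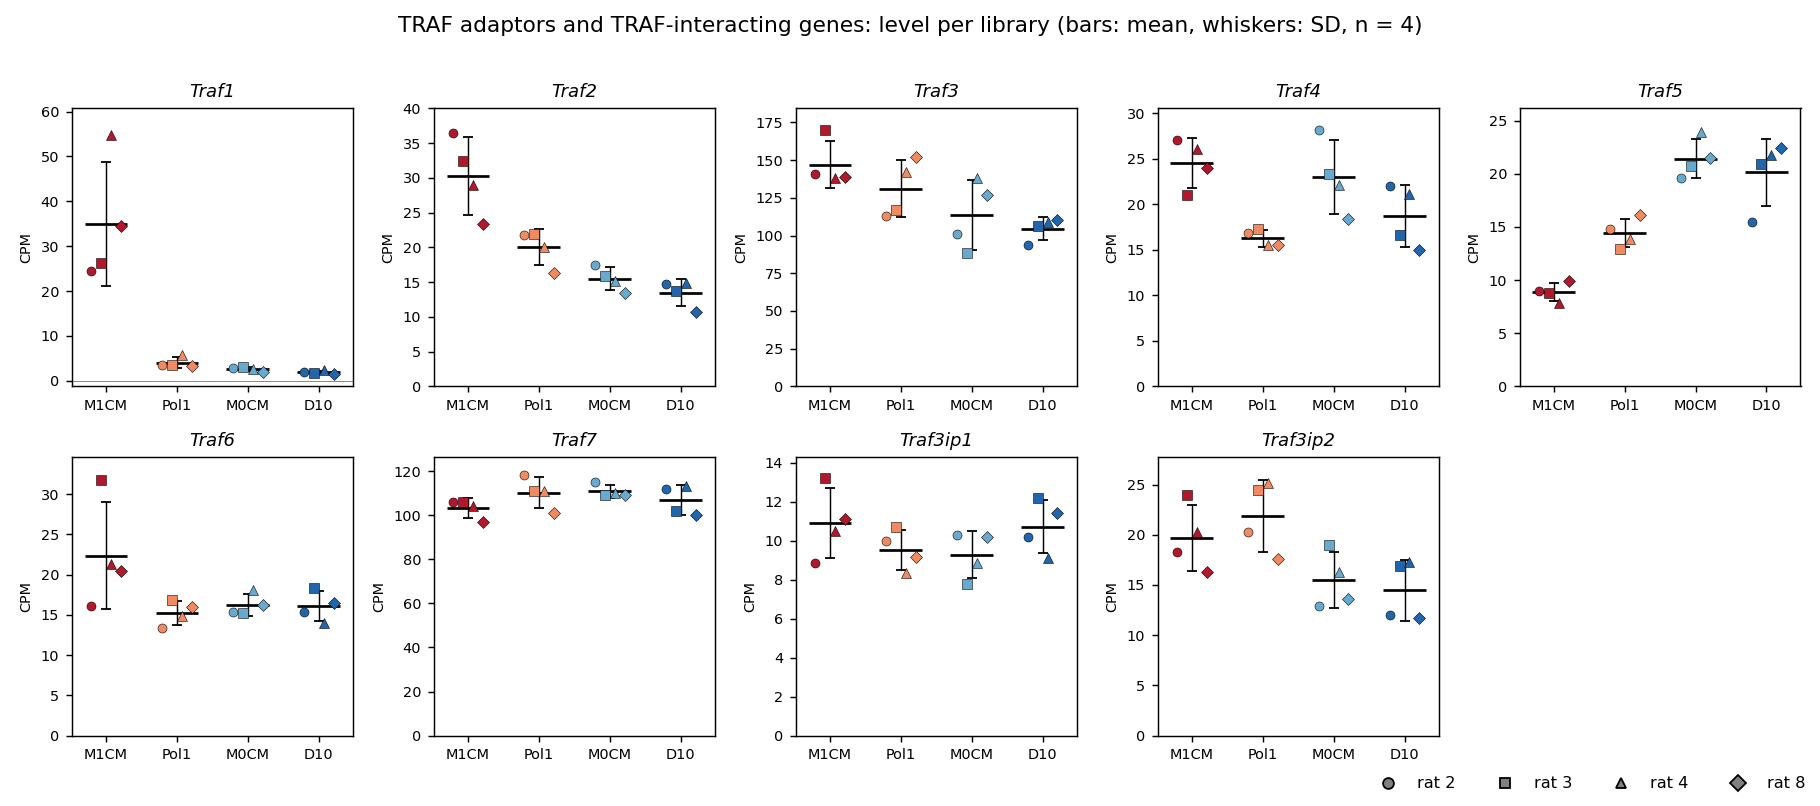
Level (CPM, linear y axis) of the 7 TRAF adaptors and 2 TRAF-interacting genes tested in M1CM, Pol1, M0CM and D10, with 1 point per library, the shape giving the rat, horizontal bars for the mean and whiskers for the SD (n = 4). Traf1 is at 24.4-54.7 CPM in M1CM and at most 5.81 CPM elsewhere, and Traf5 is lowest in M1CM.

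Genes that work around the set were counted in 3 lists, which were chosen with earlier results of these data known. Of 7 tested TNF family genes whose names fall outside the naming rule, 2 rose and 2 fell in M1CM relative to D10, where 23.3% of all genes rose and 21.1% fell. Cd40, a co-stimulatory receptor, averaged 52.6 CPM in M1CM and 0.913 CPM in D10 (log2 fold change 5.86, SE 0.87, adjusted p = 7.04e-05, edgeR), and the death receptor Fas averaged 36.9 CPM in M1CM and 18.6 CPM in D10 (0.99, SE 0.18, adjusted p = 0.000447). Edar and Eda, a receptor and its ligand in skin appendage development, fell (log2 fold changes -1.95 and -1.35), but 1 of the 7 fell without rat 3 and 0 without rat 8. In Pol1, 1 of the 7 fell (Relt), a call lost when any rat was left out.

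Of 26 tested genes of the TNF receptor complex and its kinases, 17 rose in M1CM and 13 in Pol1 relative to D10, against 23.3% and 10.6% of all genes. None fell in M1CM (1 had an unadjusted p below 0.05, and 1 fell by DESeq2), and Tab2 fell in Pol1. The largest increases in M1CM were those of Tnfaip3 (A20, a brake on NF-kB), Birc3 (cIAP2, a ubiquitin ligase bound to TRAF2) and Map3k8. Birc3 averaged 71.3 CPM in M1CM, 13.4 in Pol1 and 2.12 in D10 (log2 fold change 5.08, SE 0.20, adjusted p = 9.72e-11 for M1CM vs D10, edgeR). Tnfaip3 averaged 126 CPM in M1CM, 9.1 in Pol1 and 3.65 in D10 (5.11, SE 0.38, adjusted p = 7.03e-08). The adaptors Tradd and Fadd were not called in any comparison.

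Of 27 tested target genes of TNF and NF-kB, 27 rose in M1CM and 20 in Pol1 relative to D10, and 24 rose in M1CM relative to Pol1, against 23.3%, 10.6% and 13.8% of all genes. None of the 27 fell in these comparisons by edgeR or DESeq2, and 0 had an unadjusted p below 0.05 in that direction. Many of them also respond to LPS or interferon gamma, which Pol1 contains. Cxcl2, a neutrophil chemokine, averaged 118 CPM in M1CM, 0.244 in Pol1 and 0.0159 in D10. Cxcl10, an interferon-induced chemokine, averaged 2880 CPM in M1CM, 1310 in Pol1 and 0.629 in D10. Ptgs2 (cyclooxygenase 2), chosen after its values were seen, averaged 1030 CPM in M1CM, 15.7 in Pol1 and 14.6 in D10. It was not called in Pol1 (log2 fold change 0.10, SE 0.45, adjusted p = 0.91, edgeR). In M0CM, Sod2 was the 1 gene of the list that rose (log2 fold change 2.15, SE 0.26, adjusted p = 0.00496), a call lost without rat 4 or rat 8.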

How the data were processed

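RNA-seq libraries were made from MSCs of 4 rats in 4 media. Per the labels and the processing notes, the authors aligned reads with TopHat2 2.0.12 (Bowtie2 2.2.3), counted them per gene with HTSeq 0.6.1 and tested them with DESeq 1.18.0; whether counting used strand is not given in the sources used here. The genome build named in the Methods and some contig names differ, so no coordinates from the files are given; Traf3ip3 and Tnfsf4 overlap another gene. The authors deposited raw counts per gene for each library, with FPKM values and their own fold changes and p-values, which were not used. Member genes and gene lists were chosen with earlier results of these data known; up to 12 called genes of largest fold change per comparison, with Tnf, Tnfsf10, Traf1 and Tnfrsf1a, were given by library, and Traf3, Traf3ip2 and Tnfrsf26 were added after their values were seen. Counts were tested with edgeR 4.0.16 (R 4.3.3; TMM factors, at least 10 counts in at least 4 of 16 libraries, 1 term per condition, quasi-likelihood F-test, two-sided, Benjamini-Hochberg over 13556 genes, adjusted p below 0.05), after the procedure was tested on simulated data. Folds against a group without counts used a floor of 3 counts over the group; intervals and floors cover counting error only. Samples with the same number come from the same rat: their deviations from the condition means correlated at 0.33 to 0.728 (24 pairs), against -0.519 to 0.225 for different rats (72 pairs). A term for the rat, DESeq2 1.42.0, other scalings and filters, the 8 libraries compared alone, a minimum fold and leaving out each rat were tried as alternatives, with a filter of 10 counts in at least 3 libraries added after seeing the data. Depth was 23291125 to 31992709 counts per library. Promoters came from RefSeq (GRCr8). No library was left out.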

Additional observations from a re-analysis of the deposited data

Results flagged for a closer look

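Groups of 4 libraries with counts among the 27 tested genes were screened by Dixon's test at its 95% critical value. In 11 of 103 groups (10.7%) the highest or lowest library stood apart from the other 3. That critical value would flag about 1 in 20 groups of independent, normally distributed values. CPM near 0 are not such values and the groups share libraries, so 10.7% cannot be read against that rate. Rat 3 in M1CM was highest for Tnfrsf14 (18.2 CPM, others 3.52-4.75) and for Traf3 (170 CPM, others 138-141), and lowest for Tnfsf12 (13.5 CPM, others 21.4-22.8). Rat 2 was highest for Tnfrsf19 in M1CM (0.695 CPM, others 0.0428-0.107), for Traf7 in M0CM (115 CPM, others 109-110), for Tnfrsf9 in D10 (0.376 CPM, others 0.0751-0.0952) and for Tnf in M0CM (0.0399 CPM, from 1 count, others 0). Rat 2 was the library without Tnf in Pol1 (0 CPM, others 0.239-0.287). Rat 4 in Pol1 was highest for Traf1 (5.81 CPM, others 3.3-3.53) and for Tnfrsf25 (0.683 CPM, others 0.462-0.486). Rat 8 was highest for Tnfsf18 in M0CM (31 CPM, others 16.8-17.4), as it was in Pol1 and D10. The call of Traf1 in M1CM relative to D10 held with each rat left out. That of Tnfrsf14 held without rat 2, 4 or 8, and without rat 3 it could be tested only at 10 counts in at least 3 libraries (called, edgeR adjusted p = 0.00088).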

How the results depend on the processing

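Of 60 calls over the 5 comparisons, 29 held in every alternative in which the gene was tested and 31 were lost in at least 1; none changed direction. A minimum absolute log2 fold change of 1 removed 17, by construction, and leaving out rats 2, 3, 4 and 8 removed 4, 17, 20 and 15, in fits with fewer samples; DESeq2 and the rat term removed 0. Tnf was left untested by the count filter with any rat left out, and Tnfrsf14 without rat 3. At 10 counts in at least 3 libraries, chosen after seeing the data, their calls held apart from Tnf in Pol1 vs D10, which was lost without rat 3, 4 or 8. With a rat left out, Pol1 vs D10 gave 4 to 9 genes higher (11 with all rats) and 1 to 4 lower (4 with all), and M1CM vs Pol1 gave 4 to 9 higher (10 with all) and 1 to 3 lower (2 with all). The minimum fold left 2 lower in Pol1 vs D10 and 1 lower in M1CM vs Pol1, and a minimum of 50 counts left 1 lower in M1CM vs Pol1, where Tnfrsf19 was then not tested. Without rat 3, M1CM vs Pol1 was -0.1 for Tnfsf10 (up to 0.58 without rat 2) and 0 for Tnfrsf1a (down to -0.18 without rat 2) on the log2 scale, neither called. With the replicate block (a term for the rat) calls rose to 16 higher and 3 lower (M1CM vs D10), 12 and 4 (Pol1 vs D10), 0 and 0 (M0CM vs D10), 12 and 3 (M1CM vs Pol1) and 15 and 3 (M1CM vs M0CM); none was lost. Over all genes, M0CM vs D10 gave 107 higher and 42 lower with the block and 56 and 4 by DESeq2, against 17 and 2, and 0 and 0 without rat 4 or rat 8. Pol1 vs D10 gave 2203 and 2192 with the block, against 1431 and 1097, and 887 and 477 without rat 4. Scaling by library totals moved the share of higher calls in Pol1 vs D10 to 69%, against 56.6%. Genes under 10 counts, among them 14 of the set, were too shallow to test.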
